A study of Homo sapiens with 72 samples.

Results

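Genes that span more than 500 kb of the human genome were followed through the response of cultured cells to ultraviolet (UV) light. The members were chosen by 2 rules applied to the deposited count table, a span of over 500 kb in its GRCh38 coordinates and a mean of at least 1 CPM (counts scaled to a library of 1 M counts) over all 72 libraries. Of 19324 genes in the table, 321 spanned over 500 kb and 170 of these reached the level limit. The other 151 were below it. The level limit used measured values over all groups, so it was not free of the changes between them. All 170 members entered the tests, which covered 15470 genes. Their spans ran from 500.047 to 2305 kb with a median of 695.452 kb, against a median of 32.7 kb over all tested genes. The 3 longest were CNTNAP2, PTPRD and DMD, and 30 members spanned over 1000 kb. Their mean levels ran from 1.01 to 161 CPM with a median of 9.16 CPM, against 20.8 CPM over all tested genes. Members lay on 22 chromosomes, and 37 of them overlapped another gene of the table.

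RNA polymerase II needs hours to cross a gene of this length, since it moves at a few kb per minute. UV light leaves dimers of neighbouring pyrimidine bases in DNA, and a dimer in the transcribed strand stops the polymerase. The chance of meeting one grows with the distance travelled, so long genes are a common readout of blocked elongation. Cells restart such genes by transcription-coupled repair, which is opened by CSB at the stalled polymerase and to which STK19 has been assigned. ATR is a checkpoint kinase that answers damaged and stalled DNA. Many very long human genes encode adhesion molecules, receptors and scaffolds of the nervous system, and several overlap common fragile sites, regions that break when replication is disturbed.

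The cells were HEK293 Flp-In T-REx, an established line from human embryonic kidney, and their poly(A) RNA was sequenced. The genotypes compared were 4, the unedited line (WT), CSB_KO, STK19_KO1 and STK19_KO2, each with 3 libraries in each of 6 conditions. The conditions were untreated cells (0 h), irradiated cells at 3 h, and irradiated cells at 4 h and 20 h kept either in DMSO, the solvent, or in 3 µM VE-821, an ATR inhibitor (ATRi). The labels differ on the zero point of the 4 h and 20 h samples, which is either the irradiation or the start of the inhibitor. The sources used here give no UV dose. CSB_KO is 1 clone and STK19 has 2, and WT is the only unedited line. No unirradiated culture of a later time was analysed here, so UV and time in culture cannot be told apart. Replicates are not stated to be separate cultures, so p-values measure the spread between these samples, which may be technical. Levels are relative abundances, and fewer cells expressing a gene cannot be told apart from less RNA per cell. Mature RNA also carries both synthesis and decay, which cannot be told apart either.

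The 4 promoters below belong to members that mark the ends of the response, NLGN1 and ADGRL3 with the largest mean falls at 20 h and PCDH9 and EGLN3 with the largest mean rises. Each is the RefSeq sequence (GRCh38.p14) of 300 bases that ends 50 bases past an annotated start, read 5′ to 3′ on the gene's strand. Capitals mark GC boxes, searched as GGGCGG on both strands (CCGCCC on the other), with overlapping matches kept. They lie at chr3:173397494-173397793 (NLGN1, plus strand), chr4:61201922-61202221 (ADGRL3, plus strand), chr13:67230287-67230586 (PCDH9, minus strand) and chr14:33951025-33951324 (EGLN3, minus strand).
NLGN1: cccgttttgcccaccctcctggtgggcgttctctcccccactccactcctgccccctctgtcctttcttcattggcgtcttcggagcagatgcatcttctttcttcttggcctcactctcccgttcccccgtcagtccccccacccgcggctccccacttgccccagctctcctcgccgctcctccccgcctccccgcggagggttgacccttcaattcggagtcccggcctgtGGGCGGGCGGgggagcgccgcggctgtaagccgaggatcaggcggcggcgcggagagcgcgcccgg
ADGRL3: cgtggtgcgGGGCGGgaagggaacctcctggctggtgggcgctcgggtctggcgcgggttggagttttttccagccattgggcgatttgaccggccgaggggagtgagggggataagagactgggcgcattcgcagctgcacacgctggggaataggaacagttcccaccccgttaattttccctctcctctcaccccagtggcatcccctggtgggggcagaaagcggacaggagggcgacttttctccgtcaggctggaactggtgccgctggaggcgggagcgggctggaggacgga
PCDH9: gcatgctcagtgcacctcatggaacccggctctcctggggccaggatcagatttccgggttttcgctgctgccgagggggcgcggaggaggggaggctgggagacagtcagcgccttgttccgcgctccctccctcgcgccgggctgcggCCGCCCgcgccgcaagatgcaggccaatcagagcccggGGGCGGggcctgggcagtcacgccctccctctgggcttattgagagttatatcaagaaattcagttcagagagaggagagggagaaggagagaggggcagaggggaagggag
EGLN3: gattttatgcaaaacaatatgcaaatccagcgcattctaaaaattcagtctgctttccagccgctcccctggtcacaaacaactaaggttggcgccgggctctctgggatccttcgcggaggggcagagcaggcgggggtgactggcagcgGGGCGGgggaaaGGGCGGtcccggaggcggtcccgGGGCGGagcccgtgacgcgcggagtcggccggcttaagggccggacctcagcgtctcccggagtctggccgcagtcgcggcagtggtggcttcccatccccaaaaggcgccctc
The promoters of both fallers and of both risers held GC boxes, 2 in NLGN1, 1 in ADGRL3, 2 in PCDH9 and 3 in EGLN3. Over the 145 members matched in RefSeq, 42.4% of 356 promoters held a GC box, against 45% of 35116 promoters of all genes. The TATA box sequence TATAAA, on either strand, was in 10.4% of member promoters and 11.5% of all promoters. The AP-1 sequence TGACTCA, likewise on either strand, was in 4.78% and 4.95%. These are letter matches in a window and no measure of binding. The start printed for NLGN1 lies 1.46 kb inside the gene and leaves 897 kb to transcribe, while that of EGLN3 lies 512 kb inside its gene and leaves 26.8 kb.

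The libraries held 36.5 to 212.9 M counts with a median of 56.3 M, where M is 10 to the power of 6. Every member was counted in every library, with a lowest count of 1, and 19 members had a library under 10 counts. Of the libraries 5 stood away from their group, namely the first replicates of WT 0 h, WT 3 h, WT 4 h DMSO and STK19_KO1 4 h ATRi, and the third replicate of STK19_KO1 3 h. The targeted gene ERCC6, which encodes CSB, had 6.97 ± 0.611 CPM (SD, n = 3) in untreated CSB_KO and 23.5 ± 0.473 CPM in untreated WT. STK19 RNA, at 19.0 CPM in WT, was at 17.5 and 17.1 CPM in its knockouts, and so did not check those labels. The 6 markers taken for the line summed to 912 to 1749 CPM, mostly VIM, which many other cells express, with NEFM at a median of 0.561 CPM and PAX2 at 2.41 CPM. The 5 fibroblast markers summed to 3.94 to 20.2 CPM, mostly COL1A1, with COL1A2 and DCN at a median of 0, and those of blood (4) and kidney tubule (3) to at most 3.17 and 0.109 CPM.

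At 3 h most long genes were already lower, and the fall was small. The median log2 change of the 170 members against 0 h was -0.41 in WT and -0.22 in CSB_KO, with -0.67 in STK19_KO1 and -0.54 in STK19_KO2. By the quasi-likelihood test of edgeR, adjusted over all tested genes by Benjamini-Hochberg, 105 members fell and 18 rose in WT, where 28.8% and 33.6% of all tested genes did. With scaling by library totals alone the WT counts were 123 and 7. In CSB_KO 87 fell and 26 rose (29.3% and 32.0% of all tested genes), and with library totals alone these counts were 105 and 13. In STK19_KO1 122 fell and 7 rose, against 30.6% and 29.9% of all tested genes, and the rises were 14 with upper quartile scaling and 3 with library totals alone. In STK19_KO2 119 fell and 8 rose, against 28.5% and 29.1%. Without the 5 libraries that lay apart the falls numbered 103, 94, 120 and 126 in the same order. The same gene fell in all 4 lines in 84 cases, 49.4% of members, against 20.4% of tested genes.

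ZFPM2 (ENSG00000169946, chromosome 8, 104590733 to 105804539), a cofactor of GATA transcription factors, had the largest mean fall at 3 h. Its levels in WT were 11.2, 10.4 and 11 CPM at 0 h and 1.68, 2.21 and 2.16 CPM at 3 h. All 3 libraries at 3 h lay below all 3 at 0 h, and the log2 change was -2.42 ± 0.12 (SE; edgeR, adjusted p = 1.96e-25). The next in order were FRMPD4, a synaptic scaffold (-1.98 ± 0.11 in WT), PHACTR1, a regulator of actin and phosphatase 1 (-2.14 ± 0.13), SEMA6D, a transmembrane semaphorin (-2.28 ± 0.16), and ADGRL2, an adhesion G protein-coupled receptor (-1.78 ± 0.06). PHACTR1 overlaps another gene of the table, so its value is uncertain. Each of the 5 fell in all 4 lines. These genes include transcription, adhesion and synaptic roles and are not the longest members, since SEMA6D spans 590 kb.

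A smaller set stood higher at 3 h. WWOX, an oxidoreductase at a common fragile site, was the single member that rose in all 4 lines, where 18.5% of tested genes did. In WT it went from 16.1, 14.4 and 14.7 CPM to 17.2, 17.4 and 17.9 CPM, a log2 change of 0.22 ± 0.06 (edgeR, adjusted p = 0.00313). IMMP2L, a subunit of the mitochondrial inner membrane peptidase, changed by 0.57 ± 0.12 in WT and 0.45 ± 0.12 in CSB_KO. It overlaps another gene of the table, as does ADGRV1, an adhesion receptor that changed by 0.46 ± 0.08 and 0.71 ± 0.08. GMDS, the first enzyme of GDP-fucose synthesis, changed by 0.42 ± 0.08 and 0.43 ± 0.08. In STK19_KO2 neither IMMP2L (0.19 ± 0.12) nor GMDS (0.08 ± 0.08) passed the test.

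The differences between lines at 3 h were few in CSB_KO and one-sided in the STK19 knockouts. Against the change in WT, 10 members were less negative or more positive in CSB_KO and 6 more negative, where 1.48% and 8.30% of tested genes were. The first count depended on the libraries used. It was 2 without the 5 libraries that lay apart and ranged from 1 to 16 when 1 replicate number was left out. TENM4, a teneurin adhesion protein, was the largest of the 10. Its levels at 0 h and 3 h were 2.79, 2.73 and 2.71, then 1.18, 1.66 and 1.8 CPM in WT, and 2.36, 2.36 and 2.33, then 2.73, 2.32 and 2.2 CPM in CSB_KO. The WT groups did not overlap and the CSB_KO groups did, and the difference between the lines was 0.86 ± 0.27 (edgeR, adjusted p = 0.0285). RASGEF1B, an exchange factor for Rap GTPases, fell, at -0.99 ± 0.10 in CSB_KO, with -0.04 ± 0.10 in WT, which did not pass the test. For the mean of both STK19 knockouts, 39 members were more negative than in WT and 6 less so, against 17.1% and 10.1% of tested genes. That split depended on scaling, at 24 and 12 with upper quartile scaling and 9 and 16 with library totals alone, and the 39 became 19 when replicate 2 of every group was left out. NCKAP5 was the largest of the 39, with a difference of -0.75 ± 0.25.

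Between 3 h and 4 h in DMSO little was called outside WT. In WT 28 members fell further and 1, ZFPM2, rose, where 21.5% of tested genes were called either way. The 28 became 12 without WT 3 h replicate 1, 17 without replicate 2 of every group and 25 without all 5 libraries that lay apart. In CSB_KO edgeR called 0 members (1.14% of tested genes), with 14 lower and 4 higher at an unadjusted p under 0.05, and DESeq2 called 2 lower. In STK19_KO1 3 members rose, CNTNAP2, PCDH9 and RUNX1, where 1.14% of tested genes were called either way. Those 3 were 0 without the 5 libraries. In STK19_KO2 3 fell, ADGRL2, LPP and PSD3, and 1 rose, CREB5, against 1.50%, and the 3 were 12 without the 5 libraries.

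By 20 h the fall was deep and shared by most members. Against 0 h the median log2 change was -2.12 in WT and -1.55 in CSB_KO, with -2.18 in STK19_KO1 and -2.41 in STK19_KO2. In WT 147 members fell and 7 rose by edgeR's test, against 25.4% and 30.0% of all tested genes. In CSB_KO 146 fell and 5 rose (40.5% and 38.3% of tested genes), in STK19_KO1 159 and 4 (37.0% and 32.1%), and in STK19_KO2 161 and 5 (37.8% and 33.8%). Without the 5 libraries that lay apart the falls numbered 149, 146, 159 and 162. A fall in all 4 lines was found for 133 members of the 170, against 16.3% of tested genes. All 3 libraries at 20 h lay below all 3 at 0 h for 150 members in WT and 144 in CSB_KO, with 162 in STK19_KO1 and 163 in STK19_KO2. This count of libraries was not made over all tested genes, so only the called shares above can be compared. Against 3 h, 130, 144, 136 and 142 members fell in these lines, where 34.2%, 37.1%, 34.3% and 34.5% of tested genes did. The members' share of all counts went in WT from a mean of 0.416% at 0 h through 0.269% (3 h) and 0.25% (4 h) to 0.191% (20 h). In CSB_KO it went from 0.464% to 0.160%, in STK19_KO1 from 0.461% to 0.136% and in STK19_KO2 from 0.483% to 0.127% between 0 h and 20 h in DMSO.

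**Figure D1:**
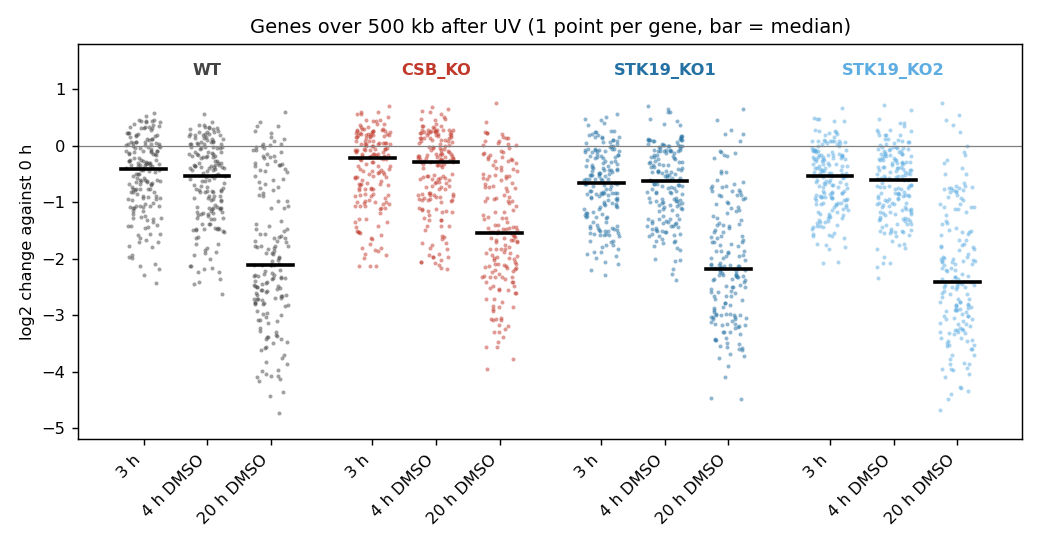
Log2 change against 0 h (vertical axis) of each of the 170 members, 1 point per gene, at 3 h, 4 h in DMSO and 20 h in DMSO in each of the 4 lines, with the median as a bar. The medians lie between -0.67 and -0.22 at 3 h and between -2.41 and -1.55 at 20 h, and a few points stay at or above 0 at every time.

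The largest mean falls at 20 h were in NLGN1 and ADGRL3, both synaptic adhesion molecules. NLGN1 (ENSG00000169760, chromosome 3, 173396284 to 174294372) is a neuroligin, a postsynaptic partner of neurexins. In WT it stood at 7.69, 6.72 and 8.46 CPM at 0 h, 4.93, 2.95 and 3.04 CPM at 3 h and 0.584, 0.345 and 0.453 CPM at 20 h. The 3 times did not overlap, and the change at 20 h was -4.07 ± 0.21 (edgeR, adjusted p = 2.12e-24). In STK19_KO2 it went from 18.1, 17.9 and 17.4 to 0.662, 0.653 and 0.771 CPM. In CSB_KO it went from 8.86, 7.55 and 9.25 to 1.17, 1.33 and 1.05 CPM, a change of -2.83 ± 0.19 that was less negative than in WT by 1.24 ± 0.30 (edgeR, adjusted p = 0.000221). ADGRL3 (ENSG00000150471, chromosome 4, 61200326 to 62078335), a latrophilin receptor that binds teneurins, fell, at -3.96 ± 0.20 in WT and -3.09 ± 0.21 in CSB_KO, with -3.9 ± 0.20 in STK19_KO1 and -4.49 ± 0.20 in STK19_KO2.

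Others among the 8 largest mean falls had different roles. FRMPD4 fell, at -3.42 ± 0.12 in WT and at -3.78 ± 0.12 in CSB_KO. TMEM117, a membrane protein, fell, at -4.13 ± 0.22 and -3.47 ± 0.22. ST6GALNAC3, a sialyltransferase, fell, at -4.05 ± 0.15 and -3.38 ± 0.14. GPHN encodes gephyrin, which anchors inhibitory receptors and makes the molybdenum cofactor. Its levels in WT were 37.4, 33.6 and 33.7 CPM at 0 h, 24.7, 23.1 and 24.1 CPM at 3 h, 17.8, 17.4 and 18.4 CPM at 4 h in DMSO and 4.71, 4.06 and 3.8 CPM at 20 h. It fell more in CSB_KO (-3.95 ± 0.09) than in WT (-3.08 ± 0.08), with a difference of -0.87 ± 0.13. AKAP6, an anchoring protein for kinase A with a mean level of 1.09 CPM, fell, at -4.72 ± 0.37 in WT from low counts, so its size is imprecise.

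The fall was delayed in a large group of members. Courses were sorted by 3 calls, 3 h against 0 h, 20 h against 0 h and 20 h against 3 h. These share libraries, so the sorting is a description. In WT 51 members were not lower at 3 h, were lower at 20 h and had fallen between the times, 30.0% of members against 13.3% of tested genes. A further 76 fell early and deepened, 44.7% against 3.27%. In CSB_KO 61 were delayed and 73 deepened, where 17.1% and 14.4% of tested genes were. The STK19 knockouts had 40 and 94 (STK19_KO1, with 15.1% and 8.88% of tested genes) and 43 and 97 (STK19_KO2, with 16.3% and 10.2%). The course was delayed in all 4 lines for 18 members and deepened in all 4 for 52, where 3.30% and 1.75% of tested genes followed these courses. The 18 were ADK, ATP8A2, ATRNL1, BBS9, CACNA1C, CCDC171, CPQ, ERC2, EXOC4, FHIT, GALNT13, GMDS, LSAMP, RAD51B, RYR2, SLIT3, SUPT3H and TRAPPC9. Of these, LSAMP and GALNT13 stood near 0 in STK19_KO1 at all times.

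EXOC4 (ENSG00000131558, chromosome 7, 133253073 to 134066589), a subunit of the exocyst that tethers vesicles to the plasma membrane, shows the delay at high counts. In WT it stood at 77.2, 68.8 and 74.3 CPM at 0 h, 91.6, 85.1 and 80.5 CPM at 3 h, 85.4, 78.5 and 79.3 CPM at 4 h in DMSO and 15.7, 14 and 14 CPM at 20 h in DMSO. The 3 h and 4 h libraries lay above those of 0 h and the 20 h libraries lay far below. In STK19_KO1 the values at 0 h, 3 h and 20 h were 76.5, 73.8 and 74, then 72.4, 71.1 and 70.6, then 13.4, 12.7 and 13.3 CPM. In CSB_KO the 20 h values were 69.8, 70.5 and 74.5 CPM against 79.7, 82.4 and 83.2 CPM at 0 h. The change at 20 h was therefore -2.34 ± 0.05 in WT and -0.19 ± 0.05 in CSB_KO, and their difference was 2.15 ± 0.07 (edgeR, adjusted p = 6.64e-34).

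GMDS, FHIT, RYR2 and CACNA1C followed the same order of times. The first 2 are enzymes of nucleotide sugar and dinucleoside metabolism, and the last 2 are calcium channels. GMDS in WT went from 25.7, 31.5 and 28.2 CPM at 0 h to 37.7, 38.6 and 38.3 CPM at 3 h and 6.12, 6.75 and 6.86 CPM at 20 h. FHIT, a fragile site gene of 1504 kb, changed by 0.53 ± 0.19 at 3 h and -2.0 ± 0.22 at 20 h in WT. RYR2 changed by 0.31 ± 0.10 and -1.7 ± 0.11, and the values of CACNA1C were -0.1 ± 0.20 (not past the test) and -2.52 ± 0.24. In CSB_KO the values at 20 h were less negative in each, at -0.19 ± 0.08 for GMDS, -0.42 ± 0.19 for FHIT, -0.39 ± 0.10 for RYR2 and -0.51 ± 0.20 for CACNA1C. All 4 differences from WT passed edgeR's test. FHIT and CACNA1C were picked after their values were seen, and CACNA1C overlaps another gene of the table.

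The largest falls from 3 h to 20 h called in at least 3 lines were in GPC6, PRKG1, CDH4, GPHN and TENM4. GPC6 (ENSG00000183098, chromosome 13, 93226807 to 94408020) encodes a glypican, a heparan sulfate proteoglycan of the cell surface, and spans 1181 kb. In WT its levels were 14.1, 12.3 and 12.7 CPM at 0 h, 11.8, 10.1 and 9.45 CPM at 3 h and 0.562, 0.466 and 0.742 CPM at 20 h. In CSB_KO they were 18.3, 17.8 and 16.3, then 16.9, 18.1 and 14.7, then 4.58, 4.6 and 4.95 CPM. At 20 h no library of CSB_KO overlapped any of WT, and the change differed by 2.47 ± 0.17 (edgeR, adjusted p = 4.03e-19). PRKG1, the cyclic GMP kinase, fell, at -3.75 ± 0.11 in WT and -2.28 ± 0.10 in CSB_KO after -0.12 ± 0.09 at 3 h in WT, which did not pass the test. It overlaps another gene of the table. CDH4, a cadherin, fell, at -4.43 ± 0.16 and -2.32 ± 0.13.

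**Figure D2:**
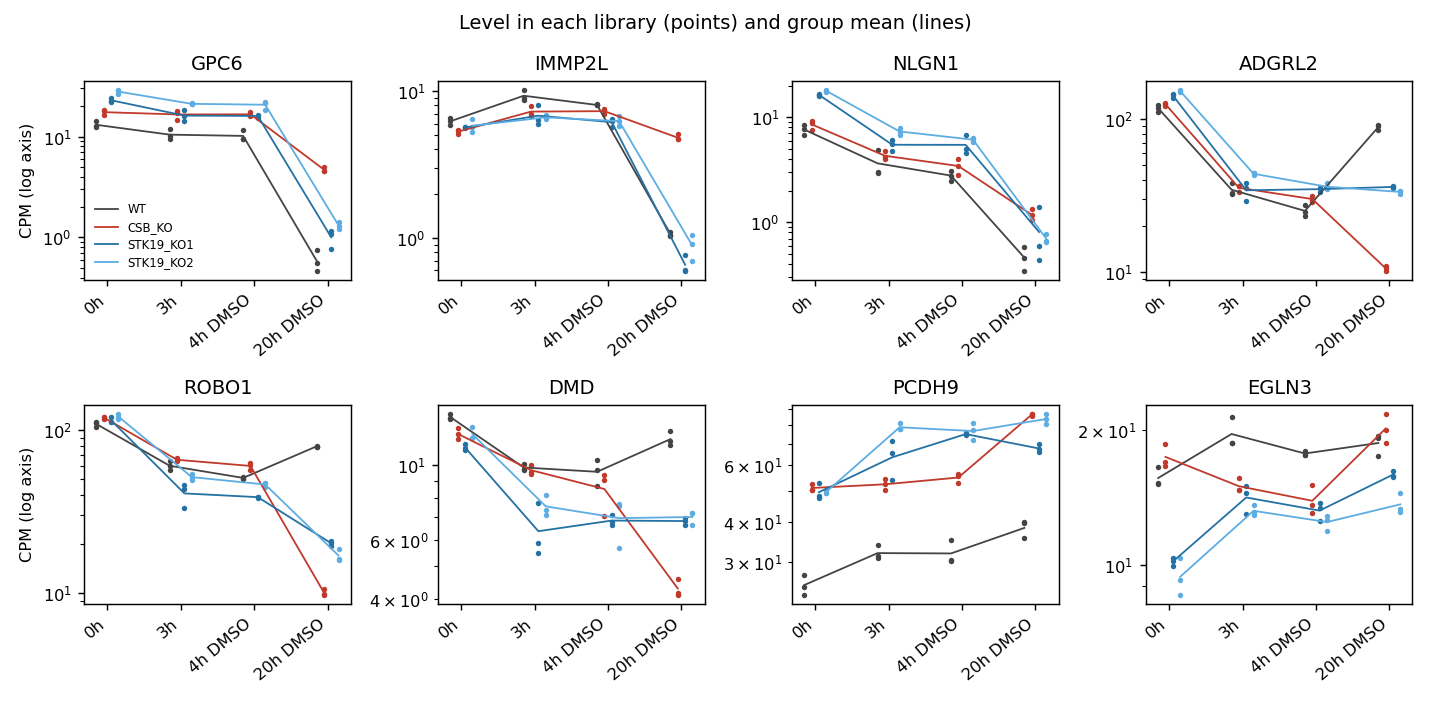
Level in CPM (log axis) of 8 members in each library (points) and group mean (lines) at 0 h, 3 h, 4 h in DMSO and 20 h in DMSO, 1 panel per gene and 1 colour per line. GPC6 and IMMP2L stay higher in CSB_KO at 20 h, ADGRL2 and ROBO1 rise from 4 h to 20 h in WT and were called higher in no edited line, and PCDH9 and EGLN3 are not below 0 h at 20 h in any line.

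A minority of members regained RNA by 20 h, a smaller share than among all tested genes in every line. A member counted here if it fell at 3 h and stood above its 3 h level at 20 h by the test. In WT 25 did, of which 16 were still called below 0 h and 9 were not. The latter are said here to be regained in full, though equality with 0 h was not tested. In CSB_KO the numbers were 6 and 2. STK19_KO1 had 14 and 3 such members, and STK19_KO2 had 9 and 2. In part or in full, 14.7% of members regained in WT and 4.71% in CSB_KO, against 21.4% and 10.2% of tested genes. The order of the lines was thus the same over all genes. Early falls that were regained in full made up 5.29% of members and 16.8% of tested genes in WT. Of the 25 in WT, 12 regained in no edited line, 7.06% of members, where 6.48% of tested genes did so. The 25 included the adhesion and axon guidance genes ADGRL2, ROBO1, SEMA3A and SEMA6D. They also included the transcription factors FOXP1, MECOM, NFIA, RARB, RORA, RUNX1, ZFHX3 and ZFPM2.

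ADGRL2 (ENSG00000117114, chromosome 1, 81306147 to 81993932) had the largest difference between WT and CSB_KO from 4 h to 20 h. At 0 h, 4 h and 20 h in DMSO it stood at 124, 112 and 119, then 27.3, 24.6 and 23.3, then 90.5, 84.8 and 91.2 CPM in WT. In CSB_KO the same times gave 126, 127 and 123, then 31.6, 28.8 and 29.6, then 10.1, 10.9 and 10.6 CPM. In STK19_KO1 the 4 h and 20 h values were 35.3, 33.5 and 35.6, then 35.4, 35.9 and 36.8 CPM, and in STK19_KO2 38.4, 35.3 and 34.6, then 32.4, 33.9 and 33.8 CPM. The gene rose between these times in WT, fell further in CSB_KO and passed the test in neither STK19 knockout. The change from 4 h to 20 h differed from WT by -3.33 ± 0.10 in CSB_KO (edgeR, adjusted p = 2.96e-36) and by -1.86 ± 0.08 in the STK19 knockouts.

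ROBO1 (ENSG00000169855, chromosome 3, 78597239 to 79767998), the receptor of the axon repellent Slit, behaved in the same order. In WT it stood at 113, 104 and 111 CPM at 0 h, 51.9, 50.2 and 50.8 CPM at 4 h and 79.2, 79.1 and 80.5 CPM at 20 h. At 20 h it stood at 9.81, 9.84 and 10.7 CPM in CSB_KO, 20.9, 20.3 and 19.5 CPM in STK19_KO1 and 15.9, 18.8 and 16.3 CPM in STK19_KO2. No edited library at 20 h reached the lowest WT library, and the change from 0 h differed from WT by -3.11 ± 0.10 in CSB_KO and -2.21 ± 0.09 in the STK19 knockouts. SEMA6D returned from 1.93, 2.32 and 2.35 CPM at 3 h to 11.8, 10.5 and 10.8 CPM at 20 h in WT, where 0 h was 11.6, 10.1 and 10.5 CPM. In CSB_KO at 20 h it stood at 2.02, 1.83 and 3.46 CPM, and in STK19_KO1 at 7.59, 6.6 and 7.86 CPM. SEMA6D was thus regained in part in the STK19 knockouts, with changes against 0 h of -1.01 ± 0.14 and -1.09 ± 0.15, and not in CSB_KO (-2.23 ± 0.16).

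Of the 20 transcription and chromatin genes 17 were lower at 20 h in WT (median -1.93), a count that can include members regained only in part. AUTS2 (ENSG00000158321, chromosome 7, 69598296 to 70793506), a component of a Polycomb complex linked to neurodevelopment, had the largest mean rise from 3 h to 20 h. In WT its levels were 49.8, 61.1 and 59.1 CPM at 0 h, 15.6, 21.2 and 20.8 CPM at 3 h and 61.8, 67.1 and 68.5 CPM at 20 h. In CSB_KO they were 63.9, 64.9 and 68.7, then 15.8, 16.3 and 17.9, then 21.6, 22.5 and 24.7 CPM. RORA, an orphan nuclear receptor, stood at -0.07 ± 0.13 against 0 h in WT, which did not pass the test, and fell in the edited lines, at -1.52 ± 0.14 in CSB_KO, -0.75 ± 0.13 in STK19_KO1 and -0.92 ± 0.13 in STK19_KO2. ZFHX3, a homeobox factor, changed by -0.3 ± 0.10 in WT and by -1.93 ± 0.11, -1.78 ± 0.10 and -2.0 ± 0.11 in the edited lines. DLC1 ended above 0 h in WT (0.41 ± 0.05) and below it in CSB_KO (-0.4 ± 0.05), and it overlaps another gene of the table.

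The longest members did not share 1 course. DMD (ENSG00000198947, chromosome X, 31097677 to 33339609) encodes dystrophin and spans 2242 kb. In WT it stood at 13.7, 13.8 and 14.2 CPM at 0 h, 10.1, 9.65 and 9.76 CPM at 3 h and 11.5, 11.8 and 12.6 CPM at 20 h. In CSB_KO at 20 h it stood at 4.18, 4.59 and 4.12 CPM, below every library of the other lines in DMSO. The change at 20 h was -0.22 ± 0.09 in WT and -1.52 ± 0.10 in CSB_KO, with -0.73 ± 0.10 in STK19_KO1 and -0.81 ± 0.09 in STK19_KO2. PTPRD, a receptor tyrosine phosphatase of 2299 kb, fell, at -2.78 ± 0.10 in WT and -2.48 ± 0.10 in CSB_KO, with -3.08 ± 0.10 in STK19_KO1 and -3.3 ± 0.10 in STK19_KO2. CNTNAP2, a neurexin-like protein and at 2305 kb the longest member, was called lower at 3 h or 20 h in no line and is described with the exceptions.

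Between WT and CSB_KO the response at 20 h differed in both directions. Against the change in WT, 92 members were less negative or more positive in CSB_KO and 43 more negative, with a median difference of 0.47. Over all tested genes these shares were 30.9% and 36.3%. With library totals alone the counts were 74 and 56 and the median was 0.10. Counted from 4 h to 20 h in DMSO, 84 were less negative and 47 more negative, against 34.4% and 36.5% of tested genes. That split was 60 and 67 with library totals alone, and its median, 0.31, turned to -0.14. For the STK19 knockouts the counts at 20 h were 28 and 76 (22.8% and 32.7% of tested genes), and from 4 h to 20 h they were 30 and 72 (26.9% and 35.4%). With library totals alone these became 17 and 87, and 13 and 103. Without the 5 libraries that lay apart the counts at 20 h were 93 and 43 in CSB_KO and 25 and 77 in the STK19 knockouts. The WT libraries serve in all of these differences.

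**Figure D3:**
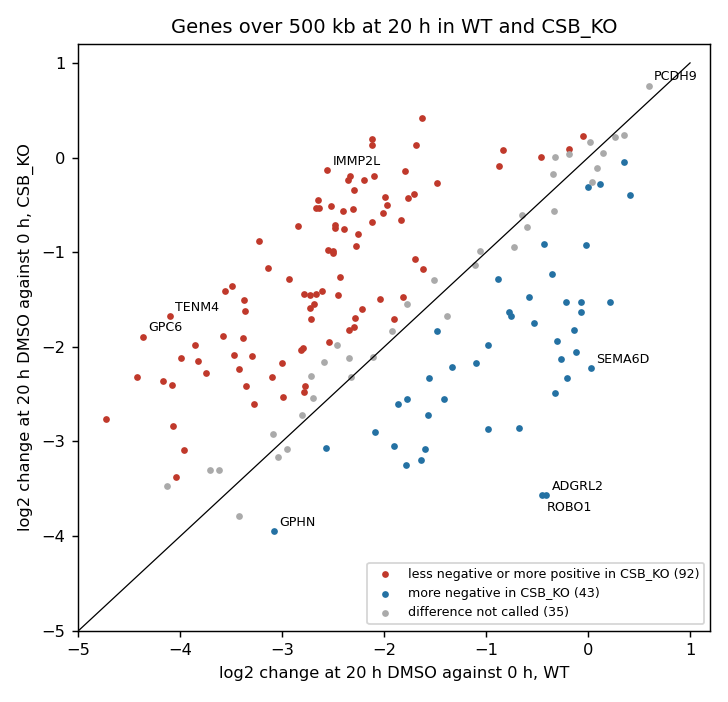
Log2 change at 20 h in DMSO against 0 h in WT (horizontal axis) and in CSB_KO (vertical axis) for each of the 170 members, coloured by the test of the difference between the lines. The line marks equal change. The 92 less negative members lie above it, many with a deep fall in WT, and the 43 more negative members lie below it, many with little change in WT.

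IMMP2L (ENSG00000184903, chromosome 7, 110662644 to 111562517) shows the first direction. In WT it rose from 5.88, 6.22 and 6.56 CPM at 0 h to 10.2, 8.98 and 8.74 CPM at 3 h and then stood at 1.1, 1.04 and 1.04 CPM at 20 h. In CSB_KO the 20 h values of 4.69, 5.06 and 4.68 CPM lay near those of 0 h, 5.42, 5.33 and 5.09 CPM. The difference at 20 h was 2.43 ± 0.18 (edgeR, adjusted p = 7.69e-18). PTPRM, a receptor phosphatase of cell contacts, fell, at -3.23 ± 0.08 in WT and -0.88 ± 0.07 in CSB_KO. LRP1B, a lipoprotein receptor of 1900 kb, fell, at -2.65 ± 0.15 and -0.45 ± 0.12, and CPQ, a carboxypeptidase, at -2.67 ± 0.23 and -0.54 ± 0.20. Beside ADGRL2, ROBO1 and SEMA6D, the opposite direction held KAZN, a junction protein that fell, at -0.68 ± 0.07 in WT and -2.86 ± 0.09 in CSB_KO, and IQCJ-SCHIP1, with values of -0.2 ± 0.09 (not past the test) and -2.33 ± 0.10. IQCJ-SCHIP1 is a read-through gene and overlaps its own parts in the table.

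Fewer members were less negative in the STK19 knockouts than in WT, and the largest of these had low counts. PLCL1, a phospholipase C-like protein, had a difference of 1.8 ± 0.38 at a mean level of 1.01 CPM. AKAP6 (1.22 ± 0.45) and ELMO1, an engulfment adaptor (1.16 ± 0.34), stood at 1.09 and 1.46 CPM. From 4 h to 20 h, HDAC9, a histone deacetylase, differed by 1.61 ± 0.27 and SLC4A4, a bicarbonate transporter, by 1.0 ± 0.17. ANO5, a membrane protein of muscle, differed by -1.7 ± 0.12. EXOC4, IMMP2L and GPC6 differed little from WT in these lines, by -0.15 ± 0.06, -0.38 ± 0.17 and -0.07 ± 0.17 at 20 h, of which only the first passed the test.

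The members were also divided by their 3 h calls in the STK19 knockouts, which compared only libraries of those knockouts. The division was not independent of WT and CSB_KO, since level limit, filter, scaling and spread came from all 72 libraries. The 116 members lower at 3 h in both STK19 knockouts had a median change at 20 h of -2.31 in WT and -2.0 in CSB_KO. The 45 lower in neither had medians of -1.63 in WT and -0.19 in CSB_KO. In the first set 54 members were less negative in CSB_KO than in WT and 40 more negative, with a median difference of 0.31. In the second set the counts were 29 and 3, with a median of 1.22. The 9 lower in 1 of the 2 lines were all less negative in CSB_KO, with a median of 1.77. Of all members 54.1% were less negative and 25.3% more negative in CSB_KO, against 30.9% and 36.3% of tested genes. The median difference of all members, 0.47, was 0.10 with library totals alone. Of the 45, 21 fell in CSB_KO at 20 h and 32 in WT, where 85.9% and 86.5% of all members and 40.5% and 25.4% of tested genes did.

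With TMM scaling, the sign of the difference between CSB_KO and WT also changed with gene span. The span classes were not repeated with other scaling. With library totals alone the median of all members at 20 h was -2.06 in WT and -1.86 in CSB_KO, against -2.12 and -1.55 with TMM. For tested genes of 100 to 200 kb the median change at 20 h was -0.20 in WT and -1.07 in CSB_KO, and for those of 200 to 300 kb it was -0.65 and -1.47. At 300 to 500 kb the medians lay close, at -1.41 and -1.47. Members of 500 to 700 kb stood at -2.10 and -1.63, those of 700 to 1000 kb at -2.37 and -1.5, and those over 1000 kb at -1.63 and -1.47. In WT the fall thus grew with span up to 1000 kb, while in CSB_KO it varied little above 200 kb. By the test, 1209 of 1883 genes of 100 to 200 kb were more negative in CSB_KO and 207 less so, whereas among the 86 members of 500 to 700 kb 24 were more negative and 45 less so. Among the 54 of 700 to 1000 kb the counts were 9 and 35, and among the 30 over 1000 kb they were 10 and 12. Over all tested genes 36.3% were more negative in CSB_KO and 30.9% less so. Members over 1000 kb, at 33.3% and 40%, stood nearer these shares than the shorter members did. The STK19 knockouts had medians of -2.15 and -2.38 for 500 to 700 kb, -2.29 and -2.47 for 700 to 1000 kb and -1.94 and -2.32 over 1000 kb. Against WT 36, 23 and 17 members of these classes were more negative there (41.9%, 42.6% and 56.7%) and 17, 9 and 2 less so. Over all tested genes 32.7% were more negative and 22.8% less so. The more negative share was higher still in genes of 100 to 200 kb (60.8%) and of 200 to 300 kb (58.1%). In these 2 classes 8.23% and 10.3% were less so. Within the members, the log10 of span tracked the change poorly, with r = 0.09 across the 170 genes in WT. These genes share libraries and are not independent replicates.

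**Figure D4:**
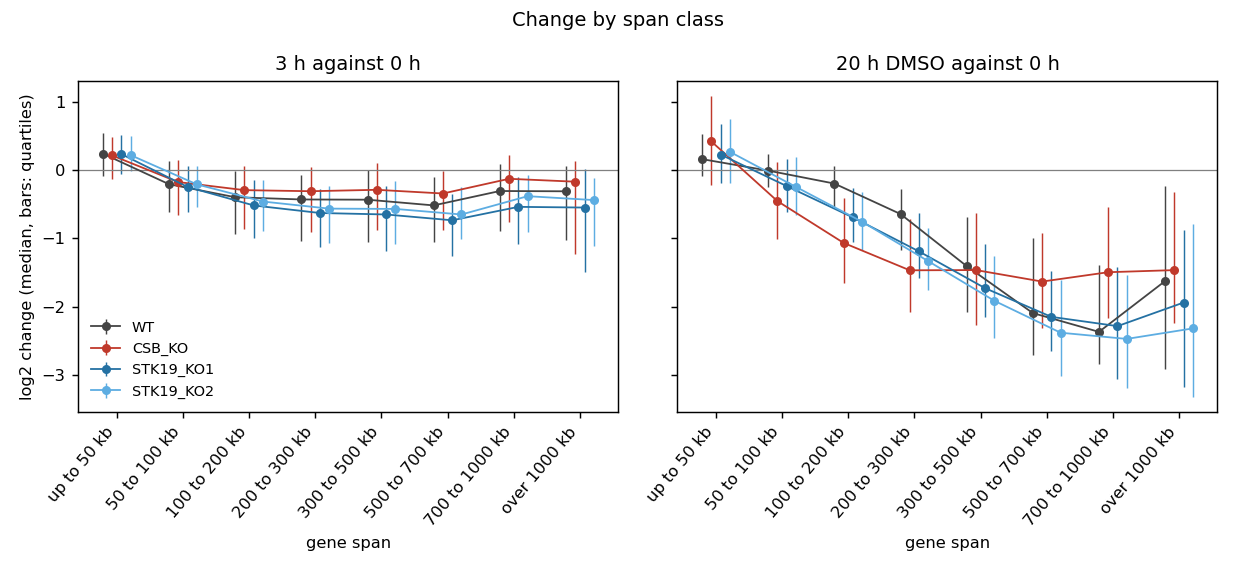
Median log2 change by class of gene span (horizontal axis) at 3 h and at 20 h in DMSO against 0 h, with quartiles as bars and 1 colour per line. At 20 h the WT medians go from 0.16 in genes of up to 50 kb to -2.37 in members of 700 to 1000 kb. With this TMM scaling the CSB_KO curve crosses that of WT between 300 and 700 kb.

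Where transcription can start within a member varied with its course. In GENCODE 29 annotation the principal coding transcript spanned over 500 kb in 127 members, up to 500 kb in 43 and up to 100 kb in 6. Where a gene had several principal transcripts, the longest was taken. Shorter coding transcripts are common, since 115 members had at least 1 of up to 100 kb. Members had a median of 6 coding transcript starts, against 3 over all tested genes. At 20 h in WT the medians were -2.35 for the 127, -1.77 for 27 with a principal transcript of 300 to 500 kb, -1.04 for 10 of 100 to 300 kb and 0.01 for the 6. Of the 127, 80 were less negative in CSB_KO than in WT and 23 more negative, while of the 6, 0 were less negative and 5 more negative. From RefSeq starts, 26 members had a start within 150 kb of the gene's end and 73 had all starts over 500 kb from it. The first set had medians of -0.56 in WT and -1.53 in CSB_KO, with -0.94 in STK19_KO1 and -1.11 in STK19_KO2. The second had -2.44, -1.45, -2.48 and -2.76. Against WT, 7 of the 26 were less negative in CSB_KO and 15 more negative, and of the 73 the counts were 50 and 6. Over all members these shares were 54.1% and 25.3%, and over tested genes 30.9% and 36.3%. Among the 25 members regained in WT, 11 of 21 with a RefSeq match had a start within 150 kb of the end, against 3 of 43 of the delayed and 8 of 65 of the deepened. SEMA6D has a last start 55.7 kb from its end. The table counts reads per gene and not per start, so which start gave the RNA was not tested. AUTS2, also regained in WT, has a single RefSeq start 1195 kb from its end.

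Seen by role, the early and the late response did not run in parallel. The lists were written from general knowledge and cover 137 members. Over all tested genes the median change in WT was 0.06 at 3 h and 0.05 at 20 h, and in CSB_KO at 20 h it was -0.01. Of all 170 members 61.8% fell at 3 h and 86.5% at 20 h in WT. Of 24 adhesion and axon guidance genes 17 fell at 3 h in WT (median -0.69), and at 20 h 20 fell and 2 rose (median -2.71). Of 20 transcription and chromatin genes 18 fell at 3 h (median -1.15), the deepest early fall of any list, and 17 at 20 h (-1.93). The 26 kinases, phosphatases and signalling enzymes had medians of -0.43 and -2.21. Their most abundant members were PTPRG, a receptor phosphatase, at -3.0 ± 0.07, and PRKCA, a protein kinase C, at -1.7 ± 0.06 at 20 h in WT. The 35 scaffold, cytoskeleton and trafficking genes had medians of -0.35 and -2.29, with LRBA, a vesicle trafficking protein that overlaps another gene, at -0.03 ± 0.07 (not past the test) at 3 h and -2.39 ± 0.07 at 20 h.

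Metabolic genes and channels were late. Of the 18 genes on the list of metabolic and other enzymes, 3 fell and 7 rose at 3 h in WT (median 0.14), while 16 fell at 20 h (median -2.2). ADGRV1, on that list, is a receptor and no enzyme. In CSB_KO 13 of the 18 fell at 20 h with a median of -0.55, and 15 were less negative than in WT and 0 more negative by edgeR's test. Of all members 85.9% fell at 20 h in CSB_KO. There 54.1% of members were less negative than in WT and 25.3% more negative, against 30.9% and 36.3% of tested genes. ADK, adenosine kinase, changed by 0.44 ± 0.08 at 3 h and -2.27 ± 0.09 at 20 h in WT and by -0.93 ± 0.09 at 20 h in CSB_KO. FAF1, a cofactor of the segregase p97, was an exception, with -1.91 ± 0.05 and -1.71 ± 0.05. Of 9 channels, transporters and transmitter receptors 8 fell at 20 h in WT (median -2.48), with a median of -0.01 at 3 h and of -0.57 at 20 h in CSB_KO, and 8 were less negative there. KCNQ5, a potassium channel, fell early, at -1.28 ± 0.09. The 5 RNA-binding genes had medians of -0.31 at 3 h and -2.04 at 20 h in WT, and CELF2, a splicing regulator, fell, at -0.75 ± 0.06 in WT and at -1.67 ± 0.07 in CSB_KO. On a separate list, 23 common fragile site genes had medians of -0.28 and -1.78, and the 33 members on no list -0.61 and -1.78. Of the 33, ALDH1A2, which makes retinoic acid and was the most abundant member, changed by -0.19 ± 0.05 in WT and -1.18 ± 0.05 in STK19_KO2 at 20 h.

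The exceptions were the 7 members that were lower at 20 h in no line, CNTNAP2, DLG2, DNAH14, EGLN3, PCDH9, RASGEF1B and RBFOX3, which is 4.12% of members, where 46.4% of tested genes were lower in no line. PCDH9 (ENSG00000184226, chromosome 13, 66302834 to 67230445), a protocadherin of neurons, rose. In WT it went from 27.3, 23.7 and 25.1 CPM at 0 h to 33.8, 31.2 and 30.7 CPM at 3 h and 39.8, 35.5 and 39.5 CPM at 20 h. In CSB_KO the levels at 0 h and 20 h were 52.5, 50.2 and 50.2, then 87, 86.7 and 85.6 CPM. The 20 h libraries lay above those of 0 h in all 4 lines, with changes of 0.59 ± 0.06, 0.76 ± 0.06, 0.46 ± 0.06 and 0.76 ± 0.06 in WT, CSB_KO, STK19_KO1 and STK19_KO2. Its only RefSeq start is the one printed above, 928 kb from the gene's end.

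EGLN3 (ENSG00000129521, chromosome 14, 33924227 to 34462774), a prolyl hydroxylase that marks HIF for decay, was the other member that rose in all 4 lines at 20 h. It stood at 9.98, 10.4 and 10.2 CPM at 0 h and 15.8, 15.7 and 16.2 CPM at 20 h in STK19_KO1, a change of 0.64 ± 0.07. In CSB_KO the change was 0.22 ± 0.07, and it turned to -0.09 with library totals alone. EGLN3 overlaps another gene of the table, and its principal transcript spans 26.9 kb. RASGEF1B, with a principal transcript of 44.9 kb, rose at 20 h in WT (0.35 ± 0.10) and both STK19 knockouts. CNTNAP2 (ENSG00000174469, chromosome 7, 146116002 to 148420998) has a principal transcript that spans nearly the whole gene. Its levels in WT were 26.9, 26.2 and 27 CPM at 0 h, 27.8, 26.9 and 26.7 CPM at 3 h and 29.3, 27.9 and 31.4 CPM at 20 h. The change at 20 h was 0.15 ± 0.05 in WT and 0.45 ± 0.05 in STK19_KO2, while that of CSB_KO, 0.05 ± 0.05, did not pass the test. DNAH14, an axonemal dynein, rose in WT by 0.36 ± 0.08. DLG2, a synaptic scaffold of 2173 kb, and RBFOX3, a neuronal splicing factor, had values of -0.34 ± 0.21 and 0.09 ± 0.20 in WT at mean levels of 1.48 and 2.71 CPM, and neither passed the test. DNAH14, DLG2 and RBFOX3 were named after their values were seen.

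The ATR inhibitor was compared with DMSO at the same labelled time. At 4 h almost nothing was called. In WT 1 member rose, ADGRL2, against 2.66% of tested genes called either way, and 10 rose without the 5 libraries that lay apart. In CSB_KO edgeR and DESeq2 both called 0 members (2.97% of tested genes by edgeR), with 5 higher and 2 lower at an unadjusted p under 0.05. In STK19_KO1 2 fell, LPP and ZFHX3, against 0.905% of tested genes. In STK19_KO2 edgeR and DESeq2 both called 0 (0.220% of tested genes by edgeR), with 6 higher and 1 lower at an unadjusted p under 0.05.

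At 20 h more long genes were lower than higher with the inhibitor in WT. In the edited lines rises outnumbered falls by margins that varied with scaling. Of members, 13.5% rose in CSB_KO, 34.7% in STK19_KO1 and 36.5% in STK19_KO2, against 14.1%, 31.5% and 30.5% of tested genes. Falls made up 5.88%, 27.1% and 18.2% of members in that order, against 17.5%, 30.1% and 27.7% of tested genes. In WT 88 members fell and 23 rose against DMSO, with a median of -0.30, where 33.7% and 30.2% of tested genes did. In CSB_KO 10 fell and 23 rose (17.5% and 14.1%), with a median of 0.09. The 23 were 10 without replicate 2 of every group and 34 with upper quartile scaling, where 7 fell, and with library totals alone 29 rose and 6 fell. In STK19_KO1 46 fell and 59 rose (30.1% and 31.5%), and in STK19_KO2 31 fell and 62 rose (27.7% and 30.5%), with medians of 0.09 and 0.12. Without the 5 libraries that lay apart 87 members fell and 24 rose in WT. With upper quartile scaling STK19_KO1 had 52 falls and 54 rises and STK19_KO2 had 39 and 49. Compared with the response of WT, 79 members were less negative or more positive in CSB_KO and 15 more negative, against 24.7% and 26.9% of tested genes. In the STK19 knockouts the counts were 89 and 7, against 20.7% and 20.2%. Of the 24 adhesion and axon guidance genes, 15 fell and 0 rose with the inhibitor in WT by edgeR's test (median -0.83), where 51.8% of all members fell.

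**Figure D5:**
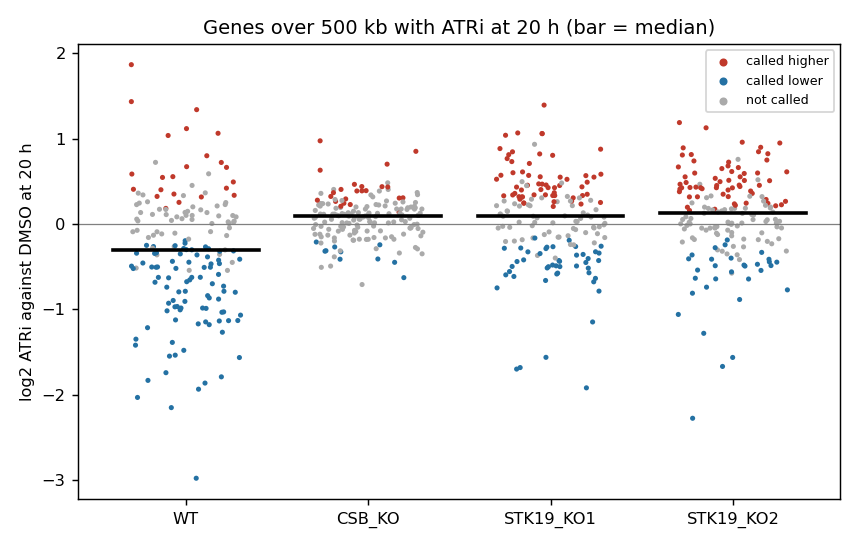
Log2 change with the ATR inhibitor against DMSO at 20 h (vertical axis) of each of the 170 members in each of the 4 lines, 1 point per gene, red where called higher, blue where called lower and grey where not called, with the median as a bar. In WT 88 points are blue and 23 red and the median is -0.30, whereas the medians of the edited lines lie between 0.09 and 0.12.

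RARB (ENSG00000077092, chromosome 3, 24687887 to 25597932), a retinoic acid receptor, had the largest mean fall with the inhibitor. It spans 424 kb in GENCODE 29, where 7 members span up to 500 kb. In WT at 20 h it stood at 2.92, 2.85 and 3.21 CPM in DMSO and 0.489, 0.365 and 0.316 CPM with ATRi. In STK19_KO1 these were 4.41, 4.47 and 4.01, then 1.32, 0.975 and 1.03 CPM, and in CSB_KO 2.36, 1.65 and 1.71, then 1.26, 1.92 and 1.08 CPM. The groups overlapped in CSB_KO alone, and the change there was smaller than in WT by 2.64 ± 0.30 (edgeR, adjusted p = 6.78e-11). SEMA6D fell, at -2.15 ± 0.16 in WT and -0.63 ± 0.18 in CSB_KO, with -1.68 ± 0.15 in STK19_KO1 and -1.67 ± 0.17 in STK19_KO2. LRRTM4, a synaptic adhesion protein, fell, at -1.74 ± 0.20 in WT, FRMD4A, a polarity scaffold, at -1.86 ± 0.14, and SEMA3A, a secreted semaphorin, at -1.55 ± 0.15.

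Some falls with the inhibitor were much larger in WT. ZFHX3 at 20 h stood at 26.9, 28 and 29.2 CPM in DMSO and 6.67, 7.94 and 7.32 CPM with ATRi in WT, and at 7.31, 8.47 and 7.39, then 6.53, 7.14 and 6.05 CPM in STK19_KO2. Against WT the change was less negative by 1.66 ± 0.13 in the STK19 knockouts and 1.53 ± 0.15 in CSB_KO. ROBO1 fell, at -1.42 ± 0.07 in WT and ADGRL2 at -1.14 ± 0.06, the genes that had come back there in DMSO. With ATRi, ADGRL2 stood at 36.5, 43 and 41.6 CPM in WT, above its 4 h level in DMSO and above every edited library with ATRi. PTPRD fell, at -1.48 ± 0.13 in WT with -0.05 ± 0.11 in CSB_KO, not past the test. KIAA1217, LSAMP and PLXNA4, a plexin, also fell in WT, at -1.83 ± 0.13, -1.54 ± 0.44 and -2.03 ± 0.39, the last 2 from levels under 1 CPM.

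Others were higher with the inhibitor. CREB5, a CREB family transcription factor, stood at 14.8, 16 and 16.4 CPM in DMSO and 40.01, 42.6 and 45.4 CPM with ATRi in WT, where 0 h was 26.1, 24.1 and 24.1 CPM. It rose by 1.43 ± 0.06 in WT and 0.85 ± 0.06 in CSB_KO, with 1.39 ± 0.05 in STK19_KO1 and 1.19 ± 0.05 in STK19_KO2. MACROD2, an ADP-ribose hydrolase of 2058 kb, rose in WT from 0.951, 0.915 and 1.39 CPM to 4.3, 4.29 and 3.6 CPM, but it overlaps 2 other genes of the table. ULK4, a kinase-like protein, rose by 1.34 ± 0.19 in WT, RABGAP1L, a Rab GTPase regulator, by 1.06 ± 0.08, and PTPRN2, a phosphatase-like protein of secretory granules, by 1.04 ± 0.22. In all 4 lines 6 members rose, CDKAL1, CREB5, EXOC4, FAF1, GMDS and RABGAP1L, and 7 fell, AUTS2, EGLN3, FAT3, GSE1, IQCJ-SCHIP1, MAGI2 and SEMA6D, where 8.16% of tested genes rose and 8.78% fell in all 4. EXOC4 and GMDS are of the delayed group, and their rise was small beside the fall from 0 h. EXOC4 stood at 18.7, 18.3 and 17.5 CPM with ATRi in WT.

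The edited lines already differed from WT at 0 h, mostly upward. Against WT, 56 members were higher and 11 lower in CSB_KO (19.1% and 15.7% of tested genes), and the 56 became 30 without replicate 2 of every group. In STK19_KO1 81 were higher and 32 lower (29.5% and 19.2%), and in STK19_KO2 83 and 24 (26.6% and 20.7%). In all 3 edited lines 40 members were higher, against 11.1% of tested genes, and 4 were lower, AFF2, FGGY, GALNT13 and TBC1D5, against 6.09%. These comparisons share the WT libraries. Without the 5 libraries that lay apart, which include 1 of WT at 0 h, the higher members numbered 68, 85 and 89. STS, steroid sulfatase on the X chromosome, stood at 3.85, 4.42 and 3.35 CPM in WT, 25.4, 23.8 and 24.8 CPM in CSB_KO, 18.6, 15.9 and 16.2 CPM in STK19_KO1 and 8.44, 8.93 and 8.44 CPM in STK19_KO2. GALNT13, a mucin glycosyltransferase, stood at 6.14, 6.83 and 5.81 CPM in WT and at 0.187, 0.13 and 0.173 CPM in STK19_KO1. STXBP5L, a regulator of vesicle fusion, was higher by 1.16 ± 0.19, 2.02 ± 0.20 and 2.2 ± 0.19 in CSB_KO, STK19_KO1 and STK19_KO2. LRP1B was higher by 1.14 ± 0.12, 0.97 ± 0.12 and 1.87 ± 0.12. FGGY, a carbohydrate kinase, and AFF2, a nuclear protein of the AFF family, were lower in CSB_KO, at -0.7 ± 0.20 and -0.49 ± 0.10. The part of the 0 h levels in the later differences was not tested.

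The limits of the choice can be read from the genes beside them. Just inside the span limit lay AFF2, ANO5 and DNAH14, with changes at 20 h in WT of -2.5, -0.07 and 0.36. Just outside lay DIAPH3 at 498.346 kb, ITPR2 and CACNA2D1, with -1.18, -2.77 and -2.06. Just inside the level limit lay PLCL1, GLIS3 and AKAP6, with -2.59, -3.04 and -4.72, and just outside CHRM3, PDE4B and SYN3, with -1.64, -0.09 and -2.26. Of the 151 long genes under the level limit 66 were tested. Of these, 44 fell and 0 rose at 20 h in WT by edgeR's test (median -2.12), against 25.4% and 30.0% of tested genes. In CSB_KO 22 of the 66 fell and 2 rose (median -1.01), against 40.5% and 38.3%. STK19_KO1 had 24 falls and 0 rises (median -1.28), against 37.0% and 32.1%. STK19_KO2 had 37 falls and 2 rises (median -1.93), against 37.8% and 33.8%. At the group means 112 members reached 1 CPM in every group and 58 were under it in at least 1, none of them in WT at 0 h.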

How the data were processed

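The deposited table holds expected counts per gene, made by the authors with STAR and RSEM on GRCh38, per the submitters' processing notes, and deposited as whole numbers, so rounding changed nothing. The aligner's settings, the annotation used and the strand setting of the counting are not given in the sources used here, so reads of overlapping genes cannot be told apart. All 72 libraries were fitted together in edgeR 4.0.16 (R 4.3.3) with 1 mean per group, after a filter on low counts (filterByExpr, minimum count 10, minimum total 15) that kept 15470 of 19324 genes and with TMM scaling. Quasi-likelihood tests gave log2 changes with standard errors for 35 contrasts of 2 groups and 8 differences between lines, in which the STK19 response is the mean of both knockouts. P-values were adjusted by Benjamini-Hochberg over all tested genes, and a gene was called at an adjusted p under 0.05. Levels are TMM-scaled CPM, while the level limit of membership used CPM from library totals. Intervals of counting error are not given, and the lowest counts are named beside the results they touch. The edgeR code was tested on simulated data.

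The alternatives were RLE size factors, upper quartile scaling, library totals alone, no filter, DESeq2 1.42.0, a replicate block, leaving out each replicate number, and leaving out 5 libraries that lay apart (chosen after seeing the data). Starts and transcripts came from RefSeq GRCh38.p14 and GENCODE 29. Members and lists were chosen with earlier results of these data known. Named genes were the 3 longest, the members with the largest mean change over the lines in each contrast that were called in most lines, those with the largest differences between lines, the neighbours of both limits and the most abundant of each role list. Others are said to have been chosen after their values were seen. The fall of 1 member between 3 h and 4 h in STK19_KO1 is not reported here.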

Additional observations from a re-analysis of the deposited data

Results flagged for a closer look

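Each value here is the difference between an edited line and WT in the same log2 change, past edgeR's quasi-likelihood test of the difference itself after Benjamini-Hochberg adjustment. A positive value means a less negative or more positive change than in WT. The differences share the WT libraries, and the STK19 values are for the mean of both knockouts.

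From 4 h to 20 h in DMSO, CSB_KO differed by 2.33 in IMMP2L, 2.28 in PTPRM, 2.18 in GPC6, 2.11 in CPQ and 2.07 in EXOC4. It differed by -3.33 in ADGRL2, -3.22 in ROBO1, -2.51 in KAZN, -2.35 in SEMA6D and -2.35 in IQCJ-SCHIP1. The STK19 knockouts differed by 1.61 in HDAC9, 1.33 in CPQ, 1.33 in PLCL1, 1.16 in ELMO1 and 1.00 in SLC4A4. They differed by -1.86 in ADGRL2, -1.83 in ROBO1, -1.7 in ANO5, -1.62 in ZFHX3 and -1.58 in SEMA6D.

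At 3 h against 0 h, CSB_KO differed by 0.86 in TENM4, 0.52 in THSD4, 0.51 in ZFPM2, -0.95 in RASGEF1B, -0.76 in DLC1 and -0.68 in RUNX1. The STK19 knockouts differed by 0.55 in SEMA6D, 0.47 in PDE4D, 0.46 in MECOM, -0.75 in NCKAP5, -0.62 in SUPT3H and -0.62 in SYNE1.

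At 20 h in DMSO against 0 h, CSB_KO differed by 2.47 in GPC6, 2.43 in IMMP2L, 2.42 in TENM4, -3.16 in ADGRL2, -3.11 in ROBO1 and -2.26 in SEMA6D. The STK19 knockouts differed by 1.8 in PLCL1, 1.22 in AKAP6, 1.16 in ELMO1, -2.21 in ROBO1, -1.68 in ADGRL2 and -1.59 in ZFHX3.

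For ATRi against DMSO at 20 h, CSB_KO differed by 2.64 in RARB, 2.02 in KIAA1217, 1.88 in LSAMP, -1.46 in MACROD2, -1.13 in ULK4 and -0.93 in STXBP5L. The STK19 knockouts differed by 1.74 in LSAMP, 1.67 in PLXNA4, 1.66 in ZFHX3, -1.54 in NCKAP5, -1.03 in CPQ and -0.86 in MACROD2. PLCL1, AKAP6, LSAMP and PLXNA4 had low counts in some groups.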

How the results depend on the processing

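The falls at 20 h held under the alternatives, with 142 to 147 of 147 kept in WT, 139 to 146 of 146 in CSB_KO, 154 to 159 of 159 in STK19_KO1 and 158 to 161 of 161 in STK19_KO2. Small counts moved, and the cause was not tested. Members higher with ATRi at 4 h in WT (1) were 3 with library totals alone, 2 with a replicate block and 10 without the 5 libraries that lay apart. Members lower at 4 h than at 3 h in CSB_KO (0) were 1 each with RLE factors, upper quartile scaling and the block, 5 without the 5 libraries and 2 by DESeq2. Those lower with ATRi at 4 h in CSB_KO (0) were 1 without the 5 libraries. Those higher at 4 h than at 3 h in STK19_KO1 (3) were 1 without the filter, 5 with the block, 0 without the 5 libraries and 5 by DESeq2. Those lower with ATRi at 4 h in STK19_KO1 (2) were 1 without the filter, and those lower at 4 h than at 3 h in STK19_KO2 (3) were 12 without the 5 libraries. At 3 h the 10 members less negative in CSB_KO were 2 without the filter and 2 without the 5 libraries, and the 39 more negative in the STK19 knockouts were 24 with upper quartile scaling and 9 with library totals. With library totals the median difference at 3 h of the STK19 knockouts turned to 0.0127, that of CSB_KO from 4 h to 20 h to -0.1369, and EGLN3 at 20 h in CSB_KO to -0.09169.

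Leaving out 1 replicate number gave 12 to 37 members lower at 4 h than at 3 h in WT, 0 to 2 in CSB_KO and 0 to 6 in STK19_KO2, and 0 to 17 higher in STK19_KO1. With ATRi at 4 h it gave 0 to 3 higher in WT and 0 to 5 lower in STK19_KO1, and at 20 h 10 to 28 higher in CSB_KO. At 0 h 30 to 57 were higher in CSB_KO than in WT. For the differences from WT at 3 h it gave 1 to 16 less negative in CSB_KO and 19 to 43 more negative in the STK19 knockouts.

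The labels do not say that a replicate number marks a shared culture or day. Libraries of the same number had a median correlation of 0.0743 across 828 pairs (-0.497 to 0.809, with 367 over 0.1), those of other numbers had -0.0365, and 36 of 72 libraries correlated best with their own number, a hint from the data and not from the design. The replicate block moved the falls at 20 h in WT from 147 to 148. Scaling moved the median of all genes by at most 0.097 with RLE factors, by up to 0.156 with upper quartile scaling and by up to -0.44 with library totals. Depth limits the 19 members with a library under 10 counts, and no external standard fixed the total RNA.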
